A study of Mus musculus with 12 samples.

Results

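The immediate early genes examined here were Fos, Fosb, Jun, Junb, Jund, Egr1, Egr2, Ier2, Ier3 and Atf3. They were chosen by name, and a probe belonged to them where its accession on the array matched one of these symbols in RefSeq. All 10 had a probe, 11 probes in all, among 41174 probes that are no controls. All 10 also passed the filter on dim probes, which left 19180 features of which 13266 were named genes. Gene expression had been measured on 12 single-colour arrays of mouse gonadal somatic cells at embryonic day 11.5, with the RNA of 1 embryo on each array and 3 embryos in each of 4 groups. The groups were males homozygous for a mutant allele of Jmjd1a (mutant males), heterozygous males (control males), homozygous females (mutant females) and heterozygous females (control females). Jmjd1a, current symbol Kdm3a, encodes a demethylase of lysine 9 of histone H3. The controls thus carry the mutant allele too, and no embryo without it was measured. All embryos carried an Nr5a1/CD271 transgene. Gonads and mesonephroi were taken apart with trypsin and cells bearing CD271 were collected on magnetic beads. Strain, litter and the time from dissection to lysis are not stated in the labels or headers.

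Immediate early genes are transcribed within minutes of a signal such as serum, a growth factor or stress, without new protein being made first. Mitogen-activated protein kinases act on factors already bound to their promoters, among them serum response factor with its Elk partners at the CArG box and CREB at the cyclic AMP response element (CRE). Many of the products are transcription factors: Fos and Jun proteins pair through leucine zippers to form AP-1, and Egr proteins bind DNA through zinc fingers. The messenger RNAs are short-lived, so their level follows recent signals. In other tissues these genes are also known to be induced while cells are freed by enzymes, which is background here and not a result.

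Promoters are shown for 4 members because the members varied together, as described below. Egr2 and Fosb varied most of the 10 between embryos of a group and Ier3 least, and Fos is the best-studied promoter of the class. Each sequence is the 250 bases before an annotated start, 5′ to 3′ on the strand of the gene, from RefSeq on GRCm38.p6. Capitals mark matches on either strand to the CRE half-site TGACG, the TATA box TATAAA or the CArG box. The half-site also lies inside the full CRE, TGACGTCA.
Fos, chr12:85473640-85473889, plus strand: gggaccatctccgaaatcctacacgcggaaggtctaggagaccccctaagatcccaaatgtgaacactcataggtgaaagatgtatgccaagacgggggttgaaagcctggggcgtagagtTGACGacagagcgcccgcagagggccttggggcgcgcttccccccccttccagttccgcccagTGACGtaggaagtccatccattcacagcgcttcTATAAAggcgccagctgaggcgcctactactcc
Fosb, chr7:19310046-19310295, minus strand: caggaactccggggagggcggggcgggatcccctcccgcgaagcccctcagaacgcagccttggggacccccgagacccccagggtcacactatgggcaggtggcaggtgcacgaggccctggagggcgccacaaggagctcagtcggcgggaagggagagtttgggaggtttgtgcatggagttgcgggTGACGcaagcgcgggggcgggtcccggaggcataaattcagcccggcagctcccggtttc
Egr2, chr10:67537619-67537868, plus strand: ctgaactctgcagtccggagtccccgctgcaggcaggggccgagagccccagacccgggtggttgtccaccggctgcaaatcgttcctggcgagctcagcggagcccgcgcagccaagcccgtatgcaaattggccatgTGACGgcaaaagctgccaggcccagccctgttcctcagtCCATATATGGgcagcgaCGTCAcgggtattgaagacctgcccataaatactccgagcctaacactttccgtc
Ier3, chr17:35821463-35821712, plus strand: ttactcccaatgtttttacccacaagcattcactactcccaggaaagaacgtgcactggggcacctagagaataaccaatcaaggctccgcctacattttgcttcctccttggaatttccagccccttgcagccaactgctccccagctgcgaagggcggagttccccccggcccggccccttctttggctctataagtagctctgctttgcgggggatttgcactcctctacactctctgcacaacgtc
The RefSeq table held 12 start windows of 8 members, of which 5 belonged to Egr2, and none of Egr1 or Ier2. The Egr2 window shown was picked because no other Egr2 window held more matches. It holds the same matches as the windows of 2 other Egr2 starts nearby. A further Egr2 window holds a CArG box but no half-site, and the last holds no match. Fos held half-sites that begin 129 and 66 bases before the start and a TATA box that begins 33 bases before it. The half-site of Fosb begins 60 bases before the start. The CArG box of Egr2 begins 72 bases before the start and lies between half-sites at 111 and 55 bases. A half-site was found in 5 of the 8 members, against 17.8% of all 32851 windows of this length. A CArG box was found in 1 of 8 members (1.47% of all windows), TATAAA in 1 (12.4%), and neither the full CRE (1.55%) nor the AP-1 site TGANTCA (6.75%) in any. A member is counted where any of its windows held a match, whereas the percentages count single windows. Sites farther than 250 bases before a start were not searched, so a missing match does not show that a gene lacks the site. A match is a description of letters and does not show that a factor was bound.

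Levels are log2 values, scaled to each array's own 75th percentile of processed signal, so a difference of 1 is a change by a factor of 2 on the linear scale. Levels of different genes come from different probes and are not set against each other. There were 3 slides with 4 arrays on each, and slide and scan coincide. Mutant male 1 shared slide 1 with the control males, control females 1 and 2 shared slide 2 with the other two mutant males, and control female 3 shared slide 3 with the mutant females. The 75th percentile, called array brightness here, ranged from 175.3 to 220.8 in mutant males, 142.9 to 220.7 in control males, 268.3 to 299.5 in mutant females and 188.7 to 280.0 in control females. With 3 arrays a group, precision is limited by their number. Kdm3a checked the genotype labels: its level was between 0.70 and 1.04 in mutant males and between 2.70 and 3.03 in control males, and between 0.43 and 0.75 in mutant females and between 2.81 and 2.96 in control females. Whether that probe lies in the mutated part of the gene is not stated there either. All 10 markers of gonadal somatic cells were tested, and 9 of them, Nr5a1 included, were well above background on every array, with Lhx2 so on 10. In bulk samples such as these, fewer cells of a type and less RNA per cell cannot be told apart.

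The immediate early genes varied widely between embryos of the same group. Of the 10 members, 8 had a within-group SD above the 90th percentile of all 19180 features, and none was called in any of 6 comparisons of genotype and sex. The median within-group SD was 0.713 for the members and 0.236 over all features. The members moved together: the lowest of the 12 embryos was mutant male 2 or control male 1 for every member.

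**Figure D1:**
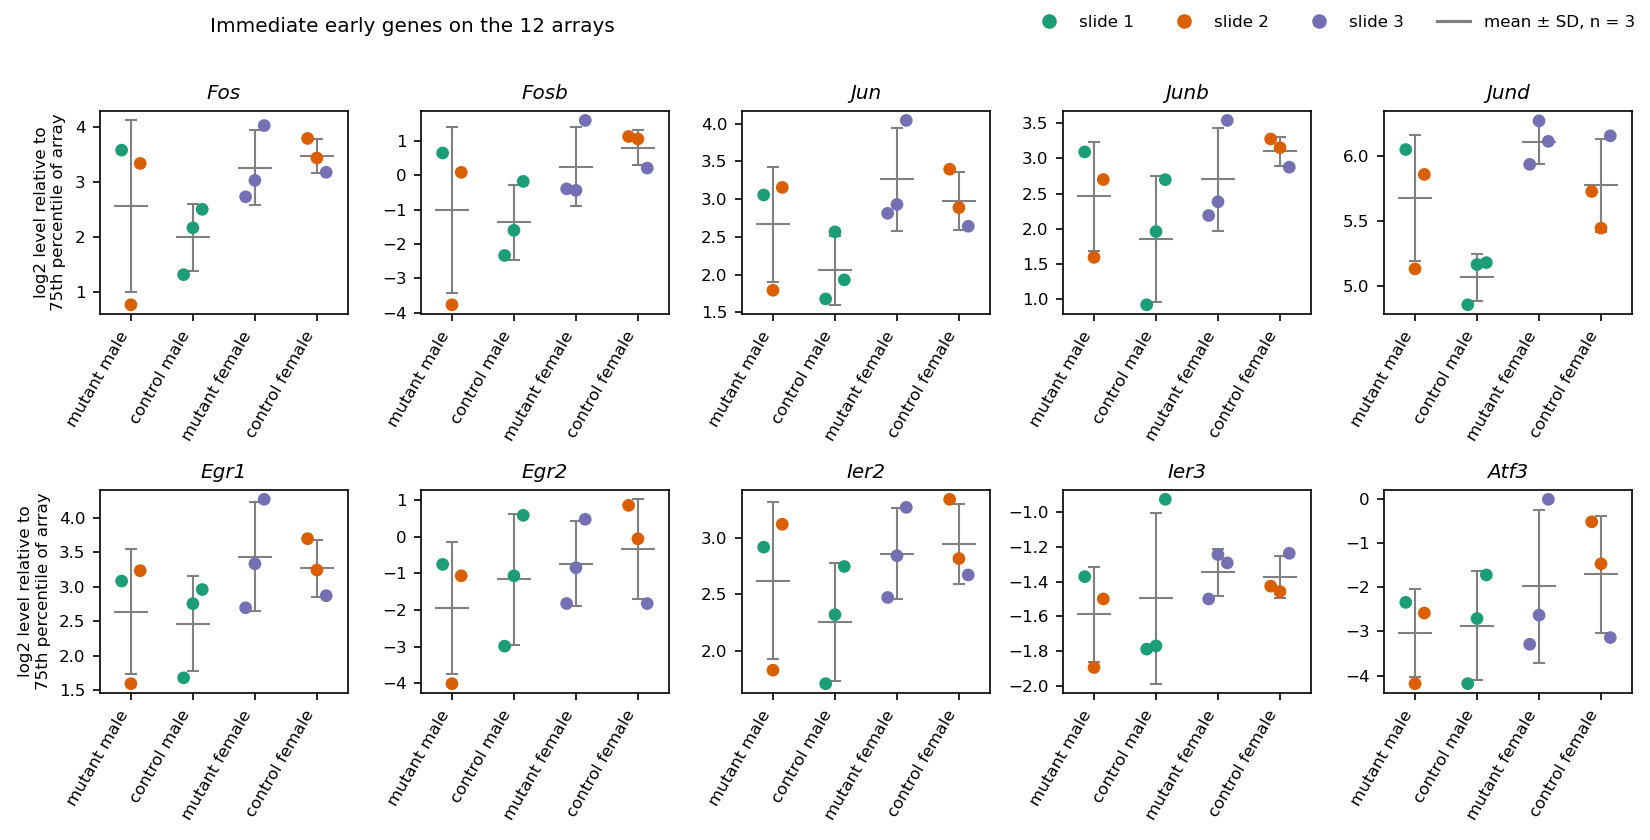
Log2 level of each immediate early gene relative to the 75th percentile of the array (vertical axis) by group. Points are single embryos coloured by slide, and grey marks are the group mean ± SD (n = 3). Mutant male 2 is the lowest mutant male and control male 1 the lowest control male in all 10 panels.

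Fos, the AP-1 subunit that gives this class its best-known name, had levels of 3.58, 0.77 and 3.34 in mutant males, 1.31, 2.17 and 2.50 in control males, 2.73, 3.03 and 4.03 in mutant females and 3.79, 3.44 and 3.18 in control females, each in the order of embryos 1 to 3. Mutant male 2 thus lay below every other embryo, while its group mates lay above all control males. The highest array, mutant female 3, stood 9.60-fold above the lowest.

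Fosb, a second Fos protein, had levels of 0.65, -3.77 and 0.09 in mutant males, -2.33, -1.60 and -0.18 in control males, -0.39, -0.44 and 1.60 in mutant females and 1.13, 1.06 and 0.21 in control females. Its range was the widest of the members, 41.2-fold between mutant female 3 and mutant male 2. Within mutant males alone the range was 21.4-fold. Even so the lowest spot, with a processed signal of 12.9, was marked as well above background.

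The Jun proteins are the partners of Fos in AP-1. Jun had levels of 3.05, 1.79 and 3.16 in mutant males, 1.68, 2.57 and 1.93 in control males, 2.81, 2.93 and 4.04 in mutant females and 3.40, 2.89 and 2.64 in control females. Control male 1 was the lowest and mutant female 3 the highest, 5.16-fold apart. Junb had levels of 3.09, 1.59 and 2.70 in mutant males, 0.92, 1.96 and 2.70 in control males, 2.19, 2.38 and 3.54 in mutant females and 3.28, 3.15 and 2.88 in control females. The same embryos were lowest and highest, 6.15-fold apart. A second Junb probe was lowest and highest on the same arrays, at 0.49 in control male 1 and 3.09 in mutant female 3.

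Jund, the Jun protein whose transcript is held at a steadier level in most cells, ranged 2.67-fold. Its levels were 6.05, 5.13 and 5.86 in mutant males, 4.86, 5.17 and 5.18 in control males, 5.94, 6.27 and 6.11 in mutant females and 5.73, 5.45 and 6.16 in control females. Here the control males were close together and below all females, and mutant male 2 lay among the control males.

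The zinc finger factors Egr1 and Egr2 followed Fos. Egr1 had levels of 3.08, 1.59 and 3.23 in mutant males, 1.68, 2.75 and 2.96 in control males, 2.69, 3.33 and 4.27 in mutant females and 3.69, 3.24 and 2.87 in control females, a 6.37-fold range. Egr2 had levels of -0.75, -4.01 and -1.07 in mutant males, -2.98, -1.07 and 0.58 in control males, -1.82, -0.85 and 0.48 in mutant females and 0.86, -0.06 and -1.82 in control females, a 29.1-fold range. The groups overlapped widely for both, and the 3 control males alone spanned 11.9-fold for Egr2.

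Ier2, a nuclear protein of the early response, ranged 3.09-fold, from 1.71 in control male 1 to 3.34 in control female 1. Its levels were 2.91, 1.83 and 3.12 in mutant males, 1.71, 2.32 and 2.74 in control males, 2.47, 2.84 and 3.27 in mutant females and 3.34, 2.81 and 2.67 in control females. Atf3, a stress-induced bZIP factor, had levels of -2.34, -4.18 and -2.58 in mutant males, -4.18, -2.71 and -1.72 in control males, -3.29, -2.63 and -0.0050 in mutant females and -0.51, -1.47 and -3.14 in control females. It was well above background on 11 arrays, all but control male 1, and ranged 18.1-fold. Ier3, a regulator of cell survival, varied least, between -1.90 in mutant male 2 and -0.93 in control male 3, a 1.96-fold range. Its levels were -1.37, -1.90 and -1.50 in mutant males, -1.79, -1.77 and -0.93 in control males, -1.50, -1.24 and -1.29 in mutant females and -1.43, -1.46 and -1.24 in control females, and all 4 groups overlapped.

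The within-group SD, pooled over the 4 groups, was 1.55 for Egr2, 1.47 for Fosb and 1.35 for Atf3. These lay at the 99.8th, 99.8th and 99.7th percentile of all features. Fos (0.917), Egr1 (0.722), Junb (0.704), Jun (0.591) and Ier2 (0.508) lay between the 92.5th and the 99.1st percentile, Jund (0.325) at the 71.9th and Ier3 (0.296) at the 65.9th. Dim probes vary more, so each member was also ranked among features whose mean level was within 0.5 of its own. Of the 10, 9 then lay at or above the 96.9th percentile, Jund included, and Ier3 at the 64.0th. Without mutant male 2 the median SD of the members was 0.562 against 0.227 over all features, and 7 members stayed above the 90th percentile, Ier2 being at the 85.3rd.

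**Figure D2:**
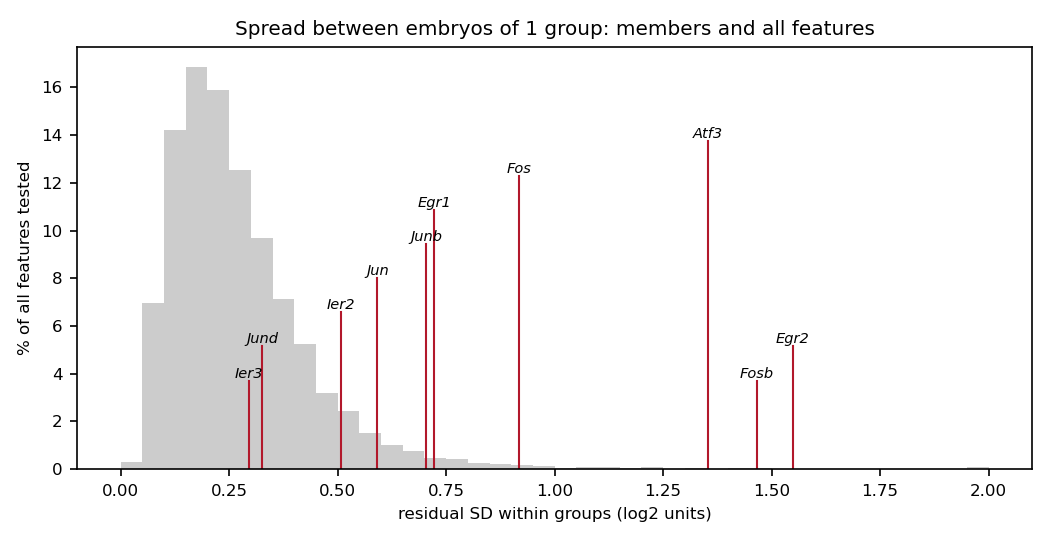
Histogram of the residual SD within groups (horizontal axis, log2 units) as the percent of the 19180 features tested (vertical axis), with each immediate early gene as a red line whose height has no meaning. The 18 features above 2 are in the last bin. Only Ier3 and Jund lie in the bulk of the histogram, and Atf3, Fosb and Egr2 lie above 1.3.

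The order of the embryos within a group was shared. Control male 1 was the lowest control male for all 10 members, against 32.0% of all features, and control male 3 the highest for 9. Mutant male 2 was the lowest mutant male for all 10, against 34.3% of all features, whereas it was the highest mutant male for 47.5% of all features and no member. Mutant female 3 was the highest mutant female for 8 members (37.8% of all features) and mutant female 1 the lowest for 9 (22.5%). Control female 1 was the highest control female for 8 (37.5%) and control female 3 the lowest for 8 (51.7%). Over all 12 arrays mutant male 2 was lowest for 6 members and control male 1 for the other 4, while these arrays were lowest for 5.92% and 15.5% of all features. Replicate numbers carry no order.

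All 45 pairs of members correlated positively over the 12 arrays, with a median Pearson r of 0.81 and a range of 0.32 to 0.98. With each group centred on its own mean the median was 0.82, so the members were as alike within groups as across them. The points share the array scaling, and these values are descriptions. Each member was also set against the mean of the other 9. Egr1 (0.97), Ier2 (0.96), Fos (0.96), Fosb (0.95) and Junb (0.93) followed it most closely, and Ier3 (0.66) and Jund (0.61) least. Of all features, 0.00523% reached the r of Egr1 with the mean of the members and 1.74% that of Jund. Without mutant male 2 the r of Egr1 was 0.96 and that of Ier3, the lowest then, 0.51.

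The genes outside the 10 whose levels were most like the mean of the members were sought among 12031 named genes well above background on all arrays. Over the 12 arrays they were Zfp36, which encodes an RNA-binding protein that shortens the life of such messengers (r = 0.97), Dusp1, a phosphatase of mitogen-activated protein kinases (0.95), Ccn1, a secreted matrix protein (0.92), Ppp1r15a, a phosphatase subunit of the stress response (0.89), and Klf4, a zinc finger factor (0.87). With groups centred they were Ccn1 (0.99), Dusp1 (0.98), the matrix protein gene Ccn2 (0.97), Zfp36 (0.95) and the noncoding RNA host Snhg8 (0.94). Ccn1 had levels of 3.10, 1.53 and 3.06 in mutant males, 2.00, 2.85 and 3.35 in control males, 2.48, 2.57 and 3.47 in mutant females and 3.38, 3.07 and 2.63 in control females. Dusp1 showed the same extremes as Jun, at -0.49 in control male 1 and 2.58 in mutant female 3.

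Of 39 other immediate early genes 33 were tested, and 15 of these had an r above 0.7 with the mean of the members, against 0.586% of all features. Their median r was 0.65. The heat shock list held mostly chaperones, with the transcription factors Hsf1 and Hsf2. Its genes were not alike in this way: 0 of 17 had an r above 0.7 and the median was -0.28. Hspa8 had no r, since its probe lacked a value on 1 array. The inducible chaperone genes Hspa1a and Hspa1b, named after their values were seen, had the highest r of that list (0.64 and 0.69). Hspa1b had levels of -2.62, -3.92 and -2.87 in mutant males, -4.71, -2.62 and -3.70 in control males, -2.51, -2.25 and -2.16 in mutant females and -2.76, -3.41 and -3.14 in control females. Mutant male 2 and control male 1 were its lowest arrays, as for the members. On control male 1 its probe was dim, below that of Atf3 (-4.18), which was not well above background there. Hspa1a was lowest in control male 1 (-1.71) and control male 3 (-1.61), with mutant male 2 at -1.14. Among 22 tested genes of the signalling to these promoters (median r 0.04), only Srf, which encodes serum response factor and was likewise named after its values were seen, was above 0.7, at 0.79. Its levels were 2.21, 1.39 and 1.98 in mutant males and 1.21, 1.48 and 2.37 in control males, so mutant male 2 and control male 1 were the lowest here too. Levels in females were narrow, 2.26, 2.29 and 2.25 in mutants and 2.09, 2.18 and 2.27 in controls.

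**Figure D3:**
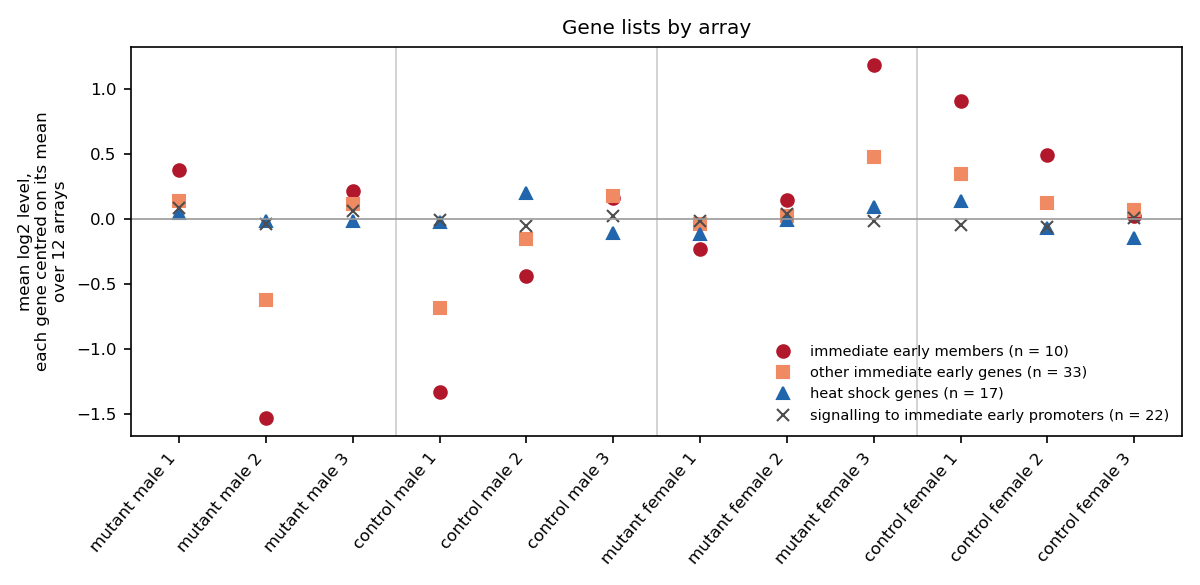
Mean log2 level of 4 gene lists on each array (vertical axis), each gene centred on its own mean over the 12 arrays. The immediate early members span -1.53 in mutant male 2 to 1.19 in mutant female 3, and the other immediate early genes follow with a smaller range, while heat shock and signalling genes stay between -0.14 and 0.20.

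Markers of other cell types were set beside this pattern, as the summed linear level of each list. Erythroid markers, 7 of 10 tested, summed to 27.9 to 334.8 in mutant males, 33.4 to 252.0 in control males, 23.4 to 496.4 in mutant females and 56.8 to 865.0 in control females, with a median r of 0.19 with the members. Endothelial markers, 10 of 10, summed to 5.98 to 12.6 in mutant males, 5.96 to 11.2 in control males, 5.15 to 10.1 in mutant females and 7.28 to 10.7 in control females (median r -0.07). Mesonephric epithelium, 12 of 12, summed to 50.2 to 66.1 in mutant males, 41.2 to 48.1 in control males, 40.5 to 50.05 in mutant females and 46.1 to 53.8 in control females (median r -0.08). Macrophage and leukocyte markers, 5 of 10, summed to at most 1.82 on any array (median r -0.01), and germ cell markers, 5 of 10, to at most 0.91 (median r -0.26). Of the germ cell genes, Ddx4 was well above background on 12 arrays, Dppa3 on 11, and Pou5f1, Nanos3 and Tfap2c on 8 each. Dazl, Prdm1 and Stra8 were so on none, and Kit and Prdm14 had no probe. No marker in these 5 lists had an r above 0.7. The part of other cell types in the levels of the members was not tested beyond these values.

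Array brightness and slide were tested within groups in limma over all features. The slope on brightness was positive for 9 of 10 members, against 44.5% of all features, but none passed (limma adjusted p from 0.071 for Ier3 to 0.96 for Atf3), where 16.3% of all features did. At an unadjusted p under 0.05 it was 1 member, Ier3, against 38.8% of features. The slope of Fos was 1.26 ± 1.19 (SE) per doubling of brightness. Brightness also scales the levels, so slope and level share it. Slide passed for 0 of 10 members, against 0.0418% of the 19159 features this test could fit, and the smallest limma adjusted p was 0.32, for Jund. At an unadjusted p under 0.05 slide passed for 0 of 10 members and for 16.1% of features. All control males were on slide 1 and all mutant females on slide 3. Slide estimates rested on mutant male 1 against mutant males 2 and 3 and on control female 3 against control females 1 and 2. With so few arrays the test could miss large slide effects. The estimates of slide 3 minus slide 1 ran from -4.01 for Egr2 to 0.01 for Jund. Low and high embryos lay side by side, since slide 2 held mutant male 2 and the higher control females 1 and 2. On that slide the mean of mutant males 2 and 3 lay below the mean of these control females for all 10 members, with a median of -1.06. Mutant male 2 lay below both control females for all 10. Mutant male 3 did so for Fos, Fosb, Junb, Egr1, Egr2, Ier3 and Atf3. It lay above both control females for Jund and above control female 2 for Jun and Ier2. Sex and genotype cannot be told apart there.

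The first comparison asked whether the homozygous mutation changed these genes in males. None of the 10 passed in limma at an adjusted p of 0.05, where 0.469% of all features did. The members' median difference was 0.36, against -0.05 over all features, with 7 higher (44.6% of all features) and 3 lower in mutants. Jund had the smallest p, with a mean of 5.68 ± 0.48 in mutant males and 5.07 ± 0.18 in control males (SD, n = 3 each), a difference of 0.61 ± 0.24 (SE, limma adjusted p = 0.38). It was the only member with an unadjusted p under 0.05, against 11.9% of all features. Jun differed by 0.61 ± 0.42 (limma adjusted p = 0.49), Fos by 0.57 ± 0.65 (limma adjusted p = 0.64) and Egr2 by -0.79 ± 1.09 (limma adjusted p = 0.69). The direction of this comparison depended on single embryos. Without mutant male 2 the median was 0.82 and all 10 members were higher in mutants, and without control male 1 it was -0.02 and 5 were lower. Of the alternatives run, Jund passed only where arrays were weighted by their fit, at 0.76 (limma adjusted p = 0.038). The share of all features that passed with these weights was not counted. Within slide 1, mutant male 1 stood above the mean of the 3 control males for all 10 members, with a median of 0.82, where 45.2% of all features were higher. That comparison rests on 1 mutant embryo. With slide as a block, which gives the same differences, none passed, with Jund at 0.98 ± 0.28 (SE, limma adjusted p = 0.26) and Fos at 1.59 ± 0.89 (limma adjusted p = 0.36). Markers of other cell types were higher in mutant males too, with none called in limma: 11 of 12 for mesonephric epithelium (median 0.67, 5 at an unadjusted p under 0.05), 9 of 10 for endothelium (median 0.56), 6 of 7 for erythroid cells (median 0.40), 5 of 5 for macrophages and leukocytes (median 0.53) and 4 of 5 for germ cells (median 0.16). Markers of gonadal somatic cells were higher in 8 of 10 (median 0.17), also with none called. The part of these markers in the difference was not tested.

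In females the members' median difference between mutants and controls was -0.14, against -0.05 over all features, with 4 higher (43.3% of all features) and 6 lower. None passed in limma, where 0.355% of all features did, and 0 had an unadjusted p under 0.05, against 10.4%. Jund averaged 6.11 ± 0.17 in mutant females and 5.78 ± 0.36 in control females (SD, n = 3 each), a difference of 0.33 ± 0.24 (SE, limma adjusted p = 0.53), and Fosb differed by -0.54 ± 1.03 (limma adjusted p = 0.79). Weighting the arrays gave Jund 0.48 (limma adjusted p = 0.049), with the share of all features that passed not counted. Within slide 3, where the mutant females meet control female 3 alone, Jund differed by -0.05 and the median of the members was 0.14. Endothelial markers were lower in mutant females in 9 of 10 (median -0.41) and macrophage and leukocyte ones in 3 of 5 (median -0.13). Mesonephric ones were lower in 8 of 12 (median -0.11, 2 at an unadjusted p under 0.05). Markers of gonadal somatic cells were higher in 10 of 10 (median 0.25) and erythroid ones in 5 of 7 (median 0.06). Germ cell markers were higher in 4 of 5 (median 0.92, 2 at an unadjusted p under 0.05). None was called in limma, and the part of these markers was not tested. Without mutant female 1 or control female 1 the members' median turned to 0.13 and 0.16.

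Over both sexes Jund differed by 0.47 ± 0.17 between mutants and controls (limma adjusted p = 0.18), and 0 of 10 members passed, against 1.12% of all features. Jund was also the 1 member with an unadjusted p under 0.05, against 23.6% of all features. Without control female 3 Jund passed at 0.57 (limma adjusted p = 0.040), and with array weights at 0.62 (limma adjusted p = 0.0040). The 1.12% belongs to the main fit, and the share of all features that passed was not counted in either of these settings. Among the 33 other immediate early genes 1 passed here: Klf2, a zinc finger factor known from endothelium, was higher in mutants by 0.77 ± 0.16 (limma adjusted p = 0.047). Klf2 had levels of 4.28, 3.82 and 4.21 in mutant males and 3.05, 3.22 and 3.27 in control males, which did not overlap, and of 4.44, 4.70 and 4.24 in mutant females and 3.72, 3.47 and 4.37 in control females, which did. It did not share the pattern of the members (r = 0.35). Its call was lost without any single one of 10 arrays, all but mutant male 2 and control female 3, while the difference stayed between 0.67 and 0.89 with 1 array left out. With slide as a block it was 0.60 (limma adjusted p = 0.31). No heat shock or signalling gene passed in any of the 6 comparisons.

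Whether the effect of the mutation differed between the sexes was tested as an interaction. No member passed, and neither did any feature (0%), with 3.65% of features and 0 members at an unadjusted p under 0.05. Junb had the largest difference of the mutant effects, 1.00 ± 0.71 (limma adjusted p = 1.00).

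The sex comparison in controls gave the lowest p-values. Control males were below control females in all 10 members, where 44.4% of all features were lower, and their median difference was -0.87 against 0.04 over all features. None passed after adjustment in limma, where 0.177% of all features did. At an unadjusted p under 0.05, 3 members were lower (Jund, Junb and Fos), as were 4.41% of all features. Fos averaged 1.99 ± 0.61 in control males and 3.47 ± 0.31 in control females (SD, n = 3 each), a difference of -1.47 ± 0.65 (SE, 2.78-fold lower, limma adjusted p = 0.46). Junb differed by -1.24 ± 0.50 (limma adjusted p = 0.46), Jund by -0.71 ± 0.24 (limma adjusted p = 0.41), Jun by -0.92 ± 0.42 (limma adjusted p = 0.46) and Fosb by -2.17 ± 1.03 (limma adjusted p = 0.47). In these 5, all AP-1 genes, the control males lay below the control females without overlap, which 5.89% of all features showed. The groups overlapped for Egr1 (-0.80 ± 0.51), Egr2 (-0.81 ± 1.09), Ier2 (-0.68 ± 0.37), Ier3 (-0.12 ± 0.22) and Atf3 (-1.16 ± 0.95), with limma adjusted p between 0.49 and 0.82. The 95% interval of the Fos difference was -2.90 to -0.05, before adjustment.

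This comparison too rested in part on 1 embryo: without control male 1 the median was -0.55 and 8 of 10 members were lower. Controls of the 2 sexes were never on one slide. With slide as a block, which links them through the mutants, the median was -1.99, and with brightness as a covariate it was -0.60, with 0 members called under either. Several marker lists were lower in control males too, with none called in limma: 7 of 7 for erythroid cells (median -1.01, 1 at an unadjusted p under 0.05), 10 of 12 for mesonephric epithelium (median -0.44, 4 at an unadjusted p under 0.05), 9 of 10 for endothelium (median -0.40), 4 of 5 for macrophages and leukocytes (median -0.32) and 7 of 10 for gonadal somatic cells (median -0.18). Germ cell markers were higher in 5 of 5 (median 1.01). Their part in the result was not tested. Other immediate early genes had a median of -0.33, with 26 of 33 lower and none called. The smallest p-values there belonged to Rhob, a small GTPase, at -1.06 ± 0.32, Klf4 at -1.52 ± 0.48 and Klf2 at -0.67 ± 0.22 (limma adjusted p from 0.36 to 0.41). The heat shock genes had a median of 0.20, with 13 of 17 higher in control males. The smallest p-values belonged to Hsph1 (0.45 ± 0.19) and Dnaja1 (0.33 ± 0.16), which were higher, and Bag3 (-0.58 ± 0.29), which was lower. Signalling genes had a median of 0.03, with Atf2 at 0.34 ± 0.16, Elk4 at 0.28 ± 0.13 and Creb1 at 0.42 ± 0.21, and none was called.

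Between mutant males and mutant females all 10 members were again lower in males, where 43.4% of all features were lower, with a median of -0.65 against 0.05 over all features. None passed in limma, where 0.13% of all features did, and 0 had an unadjusted p under 0.05, against 11.5%. Fosb differed by -1.27 ± 1.03 (limma adjusted p = 0.59) and Jund by -0.43 ± 0.24 (limma adjusted p = 0.49). Erythroid markers were lower in mutant males in 7 of 7 (median -0.70) and gonadal somatic ones in 8 of 10 (median -0.17). Mesonephric markers were higher in 10 of 12 (median 0.45) and endothelial ones in 9 of 10 (median 0.52). Germ cell markers were higher in 4 of 5 (median 0.50), as were macrophage and leukocyte ones (4 of 5, median 0.23). None of these markers was called in limma, and their part was not tested. The members' direction rested on mutant male 2: without it the median was -0.12, with 6 members lower, and Fosb differed by 0.11. With brightness as a covariate the median was -0.07 and with array weights -0.18, with 7 members lower in each. With slide as a block it was -1.45, with 10 lower. Mutant males and mutant females were never on one slide. Array brightness was 175.3 to 220.8 in mutant males and 268.3 to 299.5 in mutant females. Among the 4 group means, control males had the lowest for 7 members and mutant males for 3, while control females had the highest for 6 and mutant females for 4. No member passed in limma between any of the groups compared above.

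**Figure D4:**
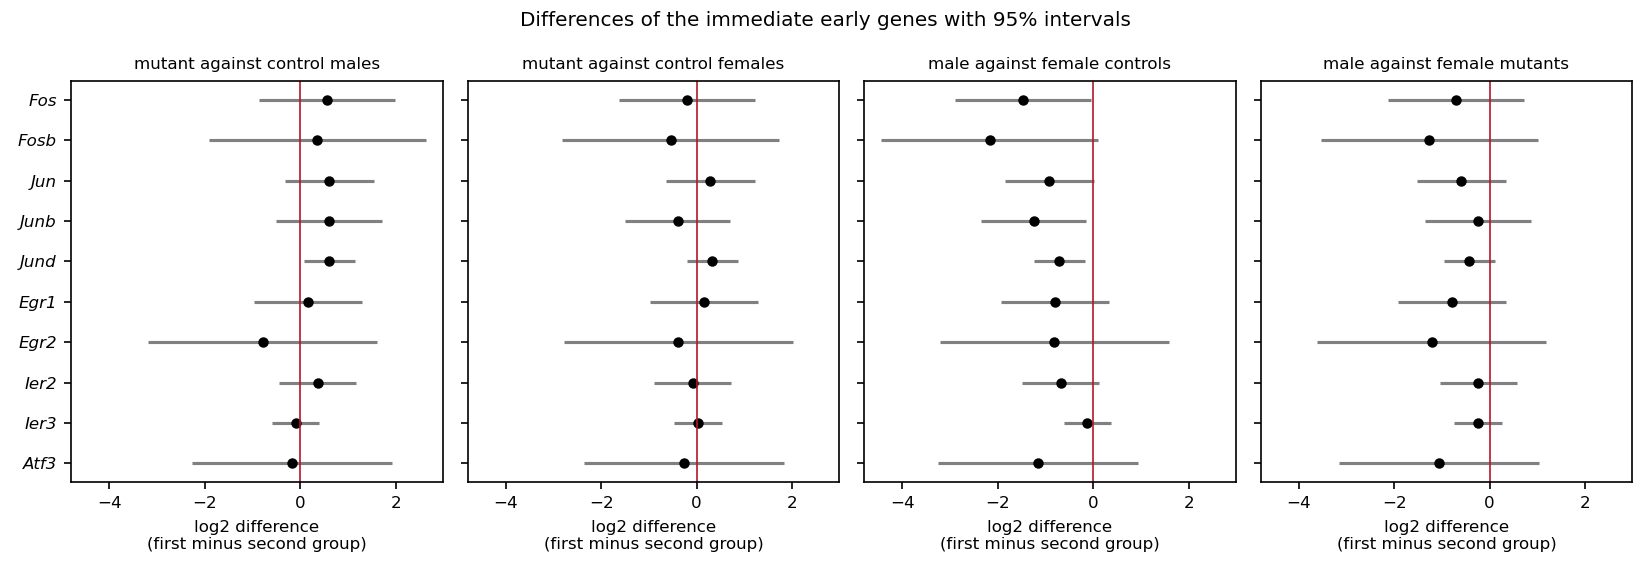
Log2 difference of each immediate early gene (horizontal axis, first minus second group) with its unadjusted 95% interval from the limma fit, in 4 comparisons. All 10 points lie below 0 in both sex comparisons, and the widest intervals belong to Egr2, Fosb and Atf3.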

How the data were processed

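Labels and file headers put 12 arrays in 4 groups of 3 single embryos. The authors deposited intensity values, per the file headers the background-subtracted processed signal of Agilent Feature Extraction 10.5.1.1 on array design 014868, built on mm9. It is not scaled between arrays. Raw spot and local background intensities were deposited too. Per the labels' protocols the RNA was linearly amplified, which can widen differences between small samples. Its part in the spread between embryos was not tested.

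Here the processed signal was put on the log2 scale and each array's 75th percentile subtracted, leaving out control spots and spots marked as outliers. Spots of a probe were averaged, and probes had 10 spots for Fos, Jun and Egr2. Of 41174 probes 27479 matched 18749 symbols in RefSeq (GRCm38.p6, used for names and promoters). Probes had to be well above background in every array of at least 1 group, and a gene with several kept its brightest. One limma model (version 3.58.1, R 4.3.3) held the 4 group means, with Benjamini-Hochberg adjustment over all 19180 features. The p-values measure the spread between single embryos. The fit was run on simulated data with independent noise for each feature and no slide effect, which does not test how it treats genes that vary together.

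The members and lists were chosen with earlier results of these data known. All members were named, with list genes that passed, the 3 of each list with the smallest p in the comparison with the smallest median p of the members, and the 5 genes most like the members. Alternatives were quantile normalization, normexp with an offset of 50 (local backgrounds marked as outliers replaced by the array median), other filters, every probe, only the groups compared, array weights, slide, brightness or replicate number in the fit, and leaving out each array. Among same-numbered embryos 6 of 18 pairs had a correlation above 0.1, and the correlations ranged from -0.53 to 0.43. Figures were drawn with matplotlib 3.10.9.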

Additional observations from a re-analysis of the deposited data

How the results depend on the processing

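No member was called in any comparison with quantile normalization, normexp, no filter or a stricter one, a test of every probe, a fit of only the groups compared, slide as a block or brightness as a covariate. Array weights called 1 member, Jund, in males (0.76), in females (0.48) and over both sexes (0.62). They gave mutant male 2 a weight of 0.38 and control female 3 one of 0.19. The share of all features called was not counted under the alternatives, so calls of Jund there have no rate to be set against. Leaving out 1 array gave 0 to 1 members over both sexes, the 1 being Jund without control female 3, and 0 in the other 5 comparisons. The members with a spread above the 90th percentile numbered 9 with normexp, 8 with quantile normalization and 7 to 8 with 1 array left out. With litters not stated, replicate numbers are not known to pair the embryos. The replicate block called 0 members in each comparison, with Fos at -1.47 between the sexes in controls.

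Differences far from the threshold changed sign. Slide as a block gave 0.40 for Egr2 in males, and -0.049 for Jund and 0.044 for Fosb in females. Array weights gave 0.044 for Egr2 in males. For Ier3 between the sexes in controls, normexp gave 0.028 and the brightness covariate 0.27. With 1 array left out, Egr2 ranged from -1.70 to 0.25 in males and from -1.68 to 0.10 between the sexes in controls. Ier3 ranged from -0.41 to 0.025 between the sexes in controls, and Fosb from -2.10 to 0.11 between the sexes in mutants. The cause of these changes was not tested. Klf2 over both sexes was 0.93 with array weights (limma adjusted p = 0.00052), 0.60 with slide as a block (limma adjusted p = 0.31) and 0.77 with the replicate block (limma adjusted p = 0.087). With 3 embryos a group, the 95% interval of Fosb between the sexes in controls ran from -4.44 to 0.10, so differences of this size could not be told from 0.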
